A study of Mus musculus with 125 samples.

Results

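Immediate early genes are transcribed within minutes of a stimulus without new protein synthesis, and 10 of them that are often read as signs of tissue dissociation were followed here in endothelial cells of the mouse brain. They were chosen by name, as Fos, Fosb, Jun, Junb, Egr1, Atf3, Ier2, Zfp36, Dusp1 and Hspa1a, and all 10 stand among the 27998 genes of the single-cell tables. The series profiles vessels of several mouse organs by chromatin and RNA assays, and 5 of its samples are single-cell RNA libraries of brain, 1 per age. A barcode, which stands for 1 captured cell, was kept as endothelial when it had at least 200 genes, at most 10% of its UMIs (unique molecular identifiers, which count captured RNA molecules) in mitochondrial genes, and at least 3 of Cdh5, Pecam1, Egfl7, Esam, Tie1 and Kdr. Of 42340 barcodes, 23709 passed.

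The embryonic groups, at E9.5, E12.5 and E16.5, were whole brains digested in warm collagenase with pipetting. The P8 and adult (2 months) groups were brain cortex taken apart with a commercial enzyme kit for neural tissue. All 5 suspensions were enriched with magnetic beads against CD31, the protein of Pecam1. Strain, genotype and the number of animals pooled for these suspensions are not given in the sources used here. Open chromatin was read in nuclei of E12, P6 and adult (2 months) brain, from mice with a vessel GFP reporter switched on by tamoxifen. Dissociation, tissue taken, age, library, the kind of barcode and the sex shown by Xist and Y-linked genes (the last 2 described below) all change together between E16.5 and P8 and cannot be told apart. With 1 library per age nothing below is a test: intervals are 95% and cover counting error only, and "higher" or "lower" between ages means at least 2-fold unless a value is given.

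Background biology frames the members. Fos, Fosb, Jun, Junb and Atf3 encode basic leucine zipper factors, and Fos and Jun proteins pair to form AP-1, which binds DNA at sites near many growth and stress genes. Kinase cascades set off by growth factors, calcium, shear or damage act on factors already bound at their promoters, such as serum response factor and CREB, so that the genes switch on quickly. Dusp1 and Zfp36 belong to the same early wave and shut it down, by removing phosphate from the kinases and by hastening decay of short-lived messages. Hspa1a is switched on by heat shock factor when proteins misfold, through a separate route. In vessels the same genes respond to flow and inflammatory signals as well as to enzymes and warming, so their level alone does not name a stimulus.

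The promoters are shown because the members share early induction while the letters before their starts differ, and because the open-chromatin data at the end bear on them. RefSeq starts on GRCm38.p6 matched 8 of the 10 members, all but Egr1 and Ier2. The 250 bases before each start were searched on both strands for the cAMP response element TGACGTCA, the AP-1 site TGANTCA, the heat shock element GAANNTTC, the TATA box TATAAA, the CArG box (the core of the serum response element) and the GC box GGGCGG. The lines below run 5′ to 3′ on the gene's own strand, with capitals on the first match of the TATA box in Fos, the CArG box in Zfp36, the cAMP response element in Dusp1 and the heat shock element in Hspa1a.
Fos, chr12:85473640-85473889, plus strand: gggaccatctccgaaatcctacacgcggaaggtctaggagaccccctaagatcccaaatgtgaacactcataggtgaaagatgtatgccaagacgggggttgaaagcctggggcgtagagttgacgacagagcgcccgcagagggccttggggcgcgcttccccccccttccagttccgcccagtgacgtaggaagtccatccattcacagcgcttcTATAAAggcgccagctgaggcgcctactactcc
Zfp36, chr7:28379229-28379478, minus strand: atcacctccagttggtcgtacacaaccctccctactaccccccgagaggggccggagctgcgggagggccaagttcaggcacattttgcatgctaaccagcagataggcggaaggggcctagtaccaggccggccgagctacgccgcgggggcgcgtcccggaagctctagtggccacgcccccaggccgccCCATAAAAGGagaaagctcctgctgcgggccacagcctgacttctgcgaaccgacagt
Dusp1, chr17:26508473-26508722, minus strand: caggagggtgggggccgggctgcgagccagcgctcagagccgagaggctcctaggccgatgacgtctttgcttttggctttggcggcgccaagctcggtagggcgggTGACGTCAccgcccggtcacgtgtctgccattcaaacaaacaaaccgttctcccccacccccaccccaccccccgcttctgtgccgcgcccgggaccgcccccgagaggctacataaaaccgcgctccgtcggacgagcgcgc
Hspa1a, chr17:34972157-34972406, minus strand: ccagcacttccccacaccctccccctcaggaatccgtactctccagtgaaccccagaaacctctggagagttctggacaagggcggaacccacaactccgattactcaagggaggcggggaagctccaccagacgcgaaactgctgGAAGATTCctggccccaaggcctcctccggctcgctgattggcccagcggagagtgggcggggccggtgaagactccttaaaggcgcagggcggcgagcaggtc

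The matches differed among members. The cAMP response element lay in Dusp1 from -143 to -136 and in none of the other 7, against 1.93% of 21238 RefSeq starts. The CArG box lay in Zfp36 from -58 to -49, against 1.39% of starts. The TATA box lay in Fos from -33 to -28, against 11.6%. A heat shock element lay in Hspa1a from -104 to -97 and in Jun from -128 to -121, against 6.16%. The AP-1 site had no match in these windows, against 6.14% of starts, and the GC box matched in 7 of 8, against 42.6%. In Zfp36 a GC box from -63 to -58 overlaps the first base of the CArG box. These are exact matches of letters within 250 bases only, so a site with other letters or farther off would be missed. Hspa1a has a neighbouring copy, Hspa1b, whose 250 bases are identical at 247 positions (98.8%) and hold the same heat shock element at the same place.

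Every member had UMIs in every library, from 53 for Hspa1a at E9.5 upward. Endothelial barcodes numbered 3154 to 6347 per library and held 23.3 to 80.4 M (mega) UMIs, with medians of 4896 UMIs per barcode in the adult to 10469 at E12.5. The other endothelial markers, Cldn5 among them, summed to 2970 to 12085 CPM (UMIs per 1000000 UMIs). Libraries also differed in ways that run beside age. The first 7 bases of the barcodes took 480 kinds at E12.5 and E16.5 and 956 to 960 in the other 3 libraries, with 129 kinds in common, although the labels name 1 reagent kit. E12.5 and E16.5 shared 50 barcodes, the pairs among E9.5, P8 and adult 8 to 31, and pairs across the 2 kinds 0 to 3. Steps within a kind (E12.5 to E16.5, and E9.5 to P8 to adult) are therefore given beside those across. Xist was at 1150 CPM with 4 UMIs of 3 Y-linked genes at E16.5, at under 0.1 CPM at P8 and in the adult, and both kinds of gene were present at E9.5 and E12.5. The E16.5 values rest on the gene order of the other libraries: with those rows its levels correlated with E12.5 at r = 0.978 across genes, and at 0.206 with rows moved by 1.

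Summed over the 10 genes, the level was higher at each embryonic age and stayed high after birth. It was 459 CPM at E9.5, 1100.2 at E12.5, then 4322 at E16.5, 3853 at P8 and 5240.5 in the adult. E9.5 and E12.5 were low and the other 3 libraries high. All 10 members were above both early libraries at E16.5, at P8 and in the adult, where 25.7% of 9694 genes were, and at E16.5 all 10 were at least 2-fold above both, against 8.38% of genes. The genes counted reached 10 CPM in any library. Fosb and Hspa1a, under that in both early libraries, entered only through the later ones. With each barcode thinned to 1000 UMIs the order of the last 3 turned, at 4152 CPM at E16.5, 3956 at P8 and 3890.5 in the adult. Summed markers of other cells, or of cycling, also differed over the same libraries. Mural markers (7 genes) summed to 158 CPM at E9.5, 88.5 at E12.5, then 179 at E16.5, 657 at P8 and 1723 in the adult. Cycling markers (4 genes) summed to 1129, 745, 240, 313 and 3.27 CPM by age. Erythroid markers (9 genes) summed to 3247, 15031, 11124, 16092 and 8377 CPM, lowest at E9.5 as the members were, and microglia and macrophage markers (9 genes) to 49.5, 231, 28.1, 10.2 and 61.2, highest at E12.5. Neuron markers (5 genes) were between 35.7 at E9.5 and 321 in the adult, neural progenitor markers (5) between 123 and 377, astrocyte markers (5) between 57.2 and 150.5, oligodendrocyte markers (5) between 11.4 and 70.7, and fibroblast markers (6) between 21.1 and 56.3. The neuron sum was mostly Stmn2 (319 CPM in the adult), the neural progenitor sum Nes (368 at P8) and the astrocyte sum Gja1 (148 at E12.5). In adult barcodes with none of the 6 endothelial markers the neuron sum was 22.4 CPM. Such sums do not by themselves show RNA of those cells. The part of any of these markers in the members' levels was not tested.

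**Figure D1:**
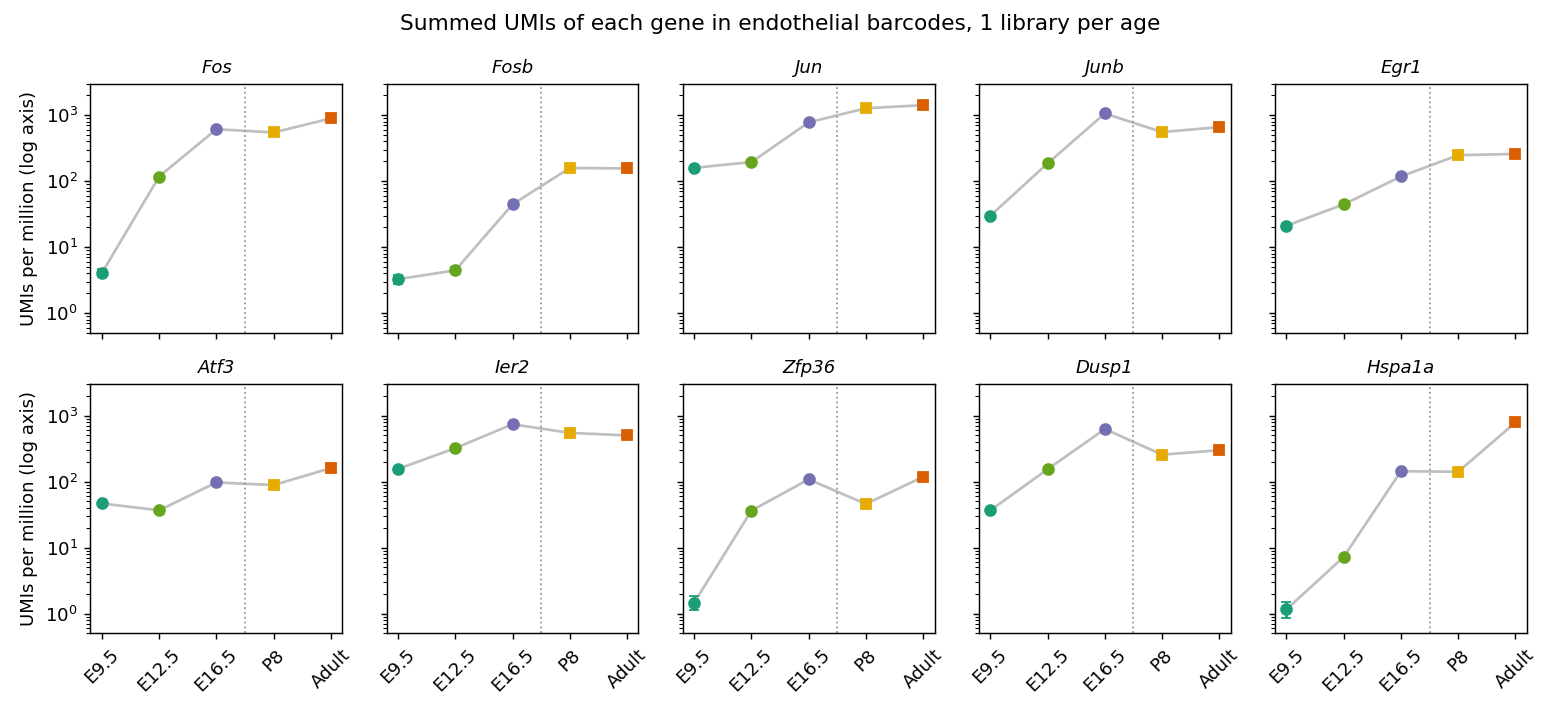
Level of each member in endothelial barcodes by library, in CPM on a log axis, with 95% counting intervals mostly smaller than the points. Circles are whole embryonic brain in collagenase, squares are cortex taken apart with the kit, and the dotted line marks the change: all 10 genes stand higher at E16.5 than at E9.5 and E12.5, and from E16.5 to P8 the genes go both ways.

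Fos, the defining partner of Jun in AP-1, had the widest range of the transcription factors in CPM. Its low end, at E9.5, is not told from background, as given below. It was at 4.07 CPM at E9.5 (95% interval 3.50 to 4.69, 186 UMIs), 118 at E12.5, then 612 at E16.5, 546.5 at P8 and 892 in the adult. It was lowest at E9.5 and, in summed UMIs, highest in the adult, although at 1000 UMIs per barcode E16.5 stood at 616, P8 at 566 and the adult at 519. It was 28.9-fold higher at E12.5 than at E9.5 and a further 5.21-fold higher at E16.5. Part of the E12.5 level lay in barcodes with markers of other cells: without those that held 2 or more mural or 2 or more microglial markers it was 79.6 CPM, against 3.37 at E9.5 counted the same way. That alternative was added after the data were seen.

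Fosb, a close relative of Fos, was still low at E12.5. It was at 3.28 CPM at E9.5, 4.45 at E12.5, then 44.6 at E16.5, 158 at P8 and 156 in the adult. With barcodes thinned to equal depth the adult was below P8, at 112 against 186 CPM. Weighting each barcode alike gave the same rounded values. Fosb was low in both early libraries, was 10.0-fold higher at E16.5 than at E12.5 and 3.54-fold higher again at P8. The cortex libraries did not overlap the embryonic ones.

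Jun, the AP-1 partner found in most cell types, was the most abundant member in 3 of the libraries, E9.5 among them. It was at 159 CPM at E9.5, 194 at E12.5, then 776 at E16.5, 1271 at P8 and 1416 in the adult. The cortex libraries lay above all embryonic ones, but the step from E16.5 to P8 was 1.64-fold and the earlier step to E16.5 was 3.99-fold. Junb, a Jun relative that often limits Jun, peaked before birth. It was at 29.9 CPM at E9.5, 185.5 at E12.5, then 1059.9 at E16.5, 553.5 at P8 and 658.5 in the adult, so that E16.5 was 1.92-fold above P8.

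Atf3, a stress-induced factor of the same fold, moved least. It was at 46.5 CPM at E9.5, 36.6 at E12.5, then 97.0 at E16.5, 88.4 at P8 and 160 in the adult. The adult excess over P8 was not seen with barcodes thinned to equal depth, at 85.3 against 82.4 CPM. Nor was it seen with each barcode weighted alike, at 81.2 against 78.8. With mitochondrial share capped at 5% the excess was larger, at 217 against 78.5. Atf3 was the only member not lowest at E9.5. Such a lowest value at E9.5 was found for 9 of 10 members and for 38% of 9694 genes. Fos, Fosb, Zfp36 and Hspa1a, under 10 CPM at E9.5, entered that count only through later libraries.

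Egr1, a zinc finger factor induced by growth factors and shear, was higher at each age to P8. It was at 21.1 CPM at E9.5, 44.4 at E12.5, then 118 at E16.5, 248 at P8 and 258 in the adult. Each library up to P8 was 2.1- to 2.65-fold above the one before, and P8 and adult differed by 1.04-fold. That near equality held for summed UMIs but not with barcodes thinned to equal depth, at 226 CPM at P8 and 127 in the adult. Weighting each barcode alike gave 232 and 130. Ier2, a small nuclear protein of the early wave, was the most abundant member at E12.5. It was at 155 CPM at E9.5, 321 at E12.5, then 738 at E16.5, 546 at P8 and 499 in the adult, highest at E16.5.

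The 2 genes that end the response went against a step at P8. Zfp36, which binds AU-rich messages and speeds their decay, was at 1.47 CPM at E9.5 (1.14 to 1.86, 67 UMIs), 36.3 at E12.5, then 108 at E16.5, 45.7 at P8 and 118 in the adult. Dusp1, a phosphatase of the MAP kinases, was at 36.6 CPM at E9.5, 153 at E12.5, then 625 at E16.5, 255 at P8 and 298 in the adult. At 1000 UMIs per barcode Dusp1 stood at 271 at P8 and 220 in the adult. From E16.5 to P8, Zfp36 was 2.36-fold lower and Dusp1 2.45-fold lower. Zfp36 then stood 2.58-fold higher in the adult than at P8, a call that was lost at 1000 UMIs per barcode (81.1 against 44.7 CPM) and with each barcode weighted alike (78.8 against 42.3).

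Hspa1a, the inducible chaperone, had the widest range of the 10 in CPM, counted from an E9.5 level not told from background, as given below. It was at 1.16 CPM at E9.5 (0.868 to 1.52, 53 UMIs), 7.22 at E12.5, then 143.5 at E16.5, 140.5 at P8 and 785 in the adult. Counted without its copy Hspa1b, it was equal within 1.02-fold across the change of dissociation, where Hspa1b was 10.3-fold higher at P8 than at E16.5. Hspa1a was 5.59-fold higher in the adult than at P8. The copy Hspa1b was at 1.20, 0.423, 7.77, 79.8 and 327 CPM in the same order of ages. It made up 50.9% of the pair's UMIs at E9.5, 5.54% at E12.5, then 5.14% at E16.5, 36.2% at P8 and 29.4% in the adult. The copies' shares thus separated the same libraries as the barcodes did, and whether counting split reads differently there was not tested.

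Counted by the 2-fold rule, the step from E12.5 to E16.5 held the most changes, and members also differed at each later step. Genes entered a comparison when they reached 10 CPM in either library. From E9.5 to E12.5, 6 of 8 members were higher (Fos, Junb, Egr1, Ier2, Zfp36 and Dusp1) and none lower, against 19.2% and 8.98% of 8278 genes. Fos and Zfp36, under 10 CPM at E9.5, entered only through E12.5. Egr1 and Ier2 passed narrowly, at log2 differences of 1.07 and 1.05, and both calls ended under median-ratio scaling (0.82 and 0.80) and with totals that leave out mitochondrial, haemoglobin and ribosomal protein genes (0.97 and 0.95), where 4 members passed. The Egr1 call also ended without barcodes with mural or microglial markers (0.92) and without those with any other cell markers (0.74), and the Ier2 call at 1000 UMIs per barcode (0.99). From E12.5 to E16.5, within 1 kind of barcode, all 10 were higher and none lower, against 8.16% and 6.8% of 8338 genes. Fosb and Hspa1a, under 10 CPM and not told from background at E12.5, entered only through E16.5. The members' median log2 difference there was 2.01, with -0.01 over all genes.

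From E16.5 to P8 the members divided. Fosb and Egr1 were higher, against 11.1% of 8480 genes, Zfp36 and Dusp1 lower, against 7.68%, and the median log2 difference was -0.15. From P8 to the adult, 2 of 10 were higher and none lower, against 13.6% and 10.4% of 8838 genes, and these were Zfp36 and Hspa1a. Only Fosb, Jun and Egr1 were at any size above all 3 embryonic libraries in both cortex libraries. That was 3 of 10, against 28.7% of 9694 genes. Fosb and Egr1 were so by at least 2-fold, against 4.98%. The Egr1 call at 2-fold ended with barcodes thinned to equal depth, at 127 CPM in the adult against 101 at E16.5. It also ended with each barcode weighted alike (130 against 104) and without the top 5% of barcodes by UMIs (154 against 114). The Fosb call held at equal depth, at 112 in the adult against 38.6 at E16.5. Without E16.5 the count at any size was 10, against 37% of the 9694 genes, and without P8 it was 7, against 40.3%. In the first of these, Fosb and Hspa1a, under 10 CPM at E9.5 and E12.5, entered only through libraries where they were higher.

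Within the other kind of barcode, P8 was higher than E9.5 for 9 of 10 members, all but Atf3 at 1.90-fold, and lower for none, against 28% and 16.1% of 8762 genes. The adult was higher than E9.5 for all 10 and lower for none, against 34.8% and 21.5% of 9162 genes. Fos, Fosb, Zfp36 and Hspa1a, under 10 CPM at E9.5, entered both comparisons only through the later library. Ratios to E9.5 levels that are not told from background, as named below, are uncertain in size. Scaling by median ratios in place of totals moved the median of all genes by -0.25 (log2) for E12.5 against E9.5 and -0.28 for P8 against E9.5 (the members' medians were 1.57 and 3.88). The first shift ended the Egr1 and Ier2 calls named above.

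Related genes outside the 10 moved less uniformly. E16.5, P8 and adult were each above both early libraries for 6 of 9 other immediate early transcription factors and 10 of 20 early signalling and growth genes, against 10 of 10 members and 25.7% of genes. Of 12 other immediate early transcription factors, 7 of 9 tested were higher at E16.5 than at E12.5, Nr4a1 and Klf4 among them, and 0 lower, with a median log2 difference of 2.06. Of 20 other early signalling and growth genes, 11 of 19 were higher and 1 lower, with a median of 1.20, and of all genes 8.16% were higher and 6.8% lower. At P8 against E16.5 these lists had 0 of 9 and 2 of 20 higher, and 3 and 8 lower, against 11.1% higher and 7.68% lower of all genes. Klf4, a flow-responsive factor, was at 4.63, 48.3, 232, 251 and 859 CPM from E9.5 to the adult, and Nfil3, a leucine zipper repressor, at 14.6, 11.9, 27.3, 3.79 and 2.28. Ier5, of the early signalling list, was at 18.2, 66.7, 107, 151 and 220. Of the other AP-1 and leucine zipper factors, 4 of 7 tested were higher and 0 lower at E16.5 than at E12.5, and 0 were higher and 3 lower at P8 than at E16.5. Only Mafg, 1 of 8, was above the embryonic libraries in both cortex libraries, against 28.7% of genes, at 87.4 and 87.7 CPM against at most 64.5.

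Other phosphatases and decay factors were fixed as a list of 15 genes. At P8 against E16.5, 0 of the 11 tested were higher and 4 lower, against 11.1% and 7.68% of all genes. In the adult against P8, 5 of 10 were higher and 3 lower, against 13.6% and 10.4%. Dusp16, a phosphatase of JNK and p38, was at 13.4 CPM at P8 and 28.6 in the adult, and at most 10.6 in the embryonic libraries. Dusp5, a phosphatase of ERK, was at 8.61, 7.49, 24.7, 3.95 and 4.34 CPM from E9.5 to the adult. Dusp4, of the same family, was at 10.3 CPM at E9.5 and 0.602 in the adult.

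General chaperones differed from Hspa1a in the embryo. Of 16 heat shock and chaperone genes, 2 were higher and 9 lower at P8 than at E9.5, against 28% and 16.1% of all genes, with a median log2 difference of -1.10. In the adult against P8, where Hspa1a was also higher, 3 were higher and 0 lower, with a median of 0.28, against 13.6% and 10.4% of all genes. At P8 against E16.5 the list had 1 higher and 0 lower, against 11.1% and 7.68%. Hspa5, the chaperone of the endoplasmic reticulum, was at 903, 802, 569, 406 and 354.5 CPM from E9.5 to the adult, and Hspa8, the constitutive form of HSP70, at 3651, 3138, 2523, 1771 and 2037. Hspb1, a small heat shock protein, went with Hspa1a, at 17.1, 92.9, 218, 297 and 1973. Of 12 genes of the ATF4 and unfolded protein response, 9 were tested between P8 and E9.5, with Herpud1 higher and Asns, Psat1 and Phgdh lower. Of the upstream kinases and factors, 6 of 15 were higher at E12.5 than at E9.5, with a median log2 difference of 0.78, against 19.2% of all genes. At E16.5 against E12.5, 1 of 16 (Hsf2) was higher, against 8.16%. Of 12 housekeeping genes, 1 was higher and 3 lower at P8 than at E9.5, with a median log2 difference of -0.31, and Gapdh, an enzyme of glycolysis, was the farthest apart at 1936 CPM at E9.5 and 202 at P8.

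At equal depth the genes were spread unevenly over barcodes from E12.5 on, and close to counting noise at E9.5. Each endothelial barcode was thinned to 1000 UMIs, which left out 12, 31 and 58 shallower barcodes at E9.5, at P8 and in the adult and none in the other libraries. The mean number of member UMIs was 0.471 at E9.5, 1.09 at E12.5, then 4.15 at E16.5, 3.96 at P8 and 3.89 in the adult. The median was 0, 1, 3, 3 and 1. The adult thus had nearly the mean of E16.5 but 28.9% of barcodes with no member UMI, against 9.53% at E16.5, 14.0% at P8, 41.4% at E12.5 and 64.0% at E9.5.

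The variance over the mean of the summed UMIs, which is 1 for pure counting noise, was 1.11 at E9.5, 1.86 at E12.5, then 3.02 at E16.5, 4.78 at P8 and 11.0 in the adult. This value also grows with the mean, so the last 3 libraries, whose means lie close, compare best. The top 10% of barcodes held 44.7%, 38.6%, 28.8%, 35.4% and 50.0% of the members' UMIs by age, lowest at E16.5. Among members the adult value was highest for Fos, at 5.40, and lowest for Zfp36, at 1.54, with Hspa1a at 2.45.

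**Figure D2:**
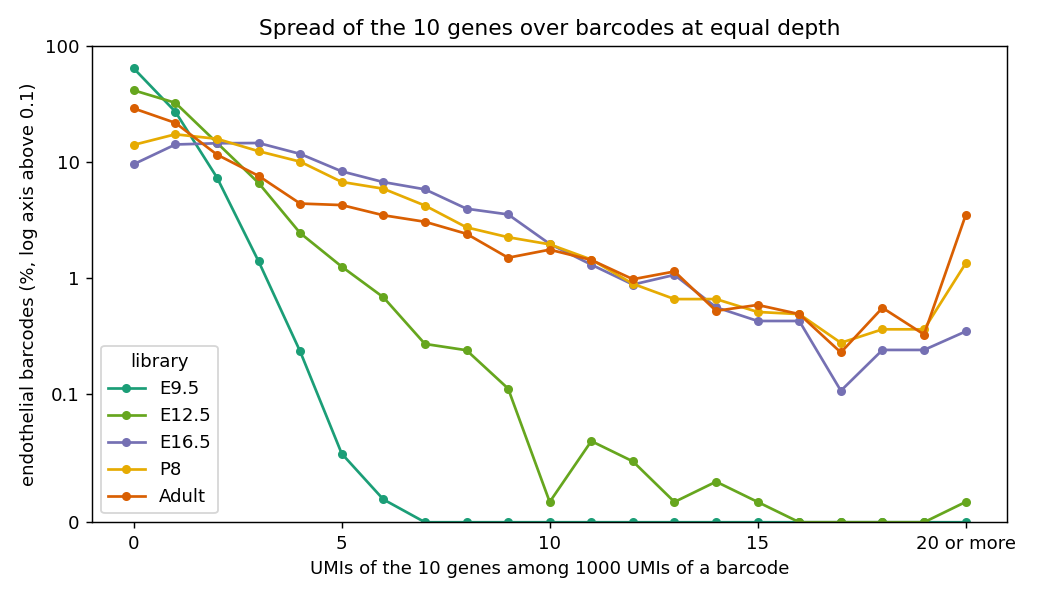
Share of endothelial barcodes (log axis above 0.1%) by the number of UMIs of the 10 genes among 1000 UMIs of the barcode, the last point holding 20 or more, with 1 line per library. E9.5 barcodes end at 6 UMIs, and the adult line has both more barcodes at 0 than E16.5 and P8 and the highest share at 20 or more.

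By correlation across barcodes, members went together most in the adult. At equal depth, barcodes with 3 or more members were most frequent at E16.5, at 49.7%, against 40.3% at P8 and 27.2% in the adult. Over the 45 pairs of members, the median Pearson r across thinned barcodes was 0.004 at E9.5 (n = 5632), 0.056 at E12.5 (n = 6347), then 0.086 at E16.5 (n = 3786), 0.151 at P8 (n = 4747) and 0.340 in the adult (n = 3096). Fos and Junb were the closest pair in the last 3 libraries, at 0.278, 0.374 and 0.679. The 9 pairs with Hspa1a had a lower median r in the adult, 0.271 against 0.379 for pairs without it. Barcodes of a library share its depth and free RNA, and low counts keep r small at E9.5 and E12.5. Read as barcodes with both genes over the number that independence gives, the median over pairs was 1.07, 1.63, 1.24, 1.46 and 2.17 by age, lower at E16.5 than at E12.5. By this measure pairs with Hspa1a stood at 1.69 against 2.53 for the others in the adult, at 1.30 against 1.49 at P8 and at 1.05 against 1.26 at E16.5. At E12.5 the order was reversed, at 2.36 against 1.56, on 2 to 13 barcodes with both genes per Hspa1a pair.

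Of the 10 genes most like the members across barcodes, 7 were on the lists of other early genes and AP-1 or leucine zipper factors, which hold 28 (0.317%) of the 8823 genes ranked. Apold1, Adamts1 and Klf2 were on none. The 10 with the highest mean r over the 5 libraries were Btg2 (0.489), Nr4a1 (0.431), Jund (0.430), Ppp1r15a (0.372), Apold1, Klf6, Cyr61, Adamts1, Klf2 and Klf4 (0.290), and the median over all genes ranked was 0.023. Here r was taken between log1p of UMIs per 10000 of the gene and the mean of the same over the members. Apold1, an endothelial early gene, was detected in 14.5% of barcodes at E9.5 and 91.6% at E16.5.

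Adult heterogeneity ran beside arterial markers. Barcodes with 2 or more of Gja5, Gja4, Bmx, Sema3g, Hey1 and Efnb2 numbered 884 of 3154 in the adult. Their summed member level was 8531 CPM against 2981 in the rest, 2.86-fold, with all 10 members above the rest and 8 at least 2-fold, where 45.9% and 7.12% of 8537 genes were. The ratio was 1.28 at E9.5, 1.01 at E12.5, then 1.29 at E16.5 and 1.48 at P8, so the adult stood apart.

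By member, the adult arterial excess was largest for Atf3 (356 against 25.3 CPM, 14.1-fold), Egr1 (568 against 45.6, 12.5-fold) and Fos (1788 against 276, 6.47-fold). It was smallest for Jun (1883 against 1096, 1.72-fold) and Hspa1a (965 against 661.5, 1.46-fold). Arterial-marker barcodes were deeper, with a median of 7189 UMIs against 4423, and held more mural RNA, 2705 against 1048 CPM over 7 mural markers. At 1000 UMIs each, the mean was 6.50 member UMIs against 2.86. Among barcodes without 2 or more mural or microglial markers, where mural RNA was 101 against 107 CPM, the summed ratio was 2.68 and Atf3 stood at 13.9-fold, Egr1 at 12.6-fold and Fos at 6.47-fold. Venous markers showed no such excess, with a ratio of 0.91 in the adult and 0.80 at P8, and cycling barcodes had a summed level of 0.84 to 0.94 of the rest in each of the 4 libraries with enough of them. By member, 2 of 10 were above the rest in cycling barcodes at E9.5, 6 at E12.5, then 2 at E16.5 and 3 at P8, against 57%, 49.3%, 44.2% and 41.7% of genes. Without barcodes with mural or microglial markers the E12.5 count was 2, and the other counts were the same.

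**Figure D3:**
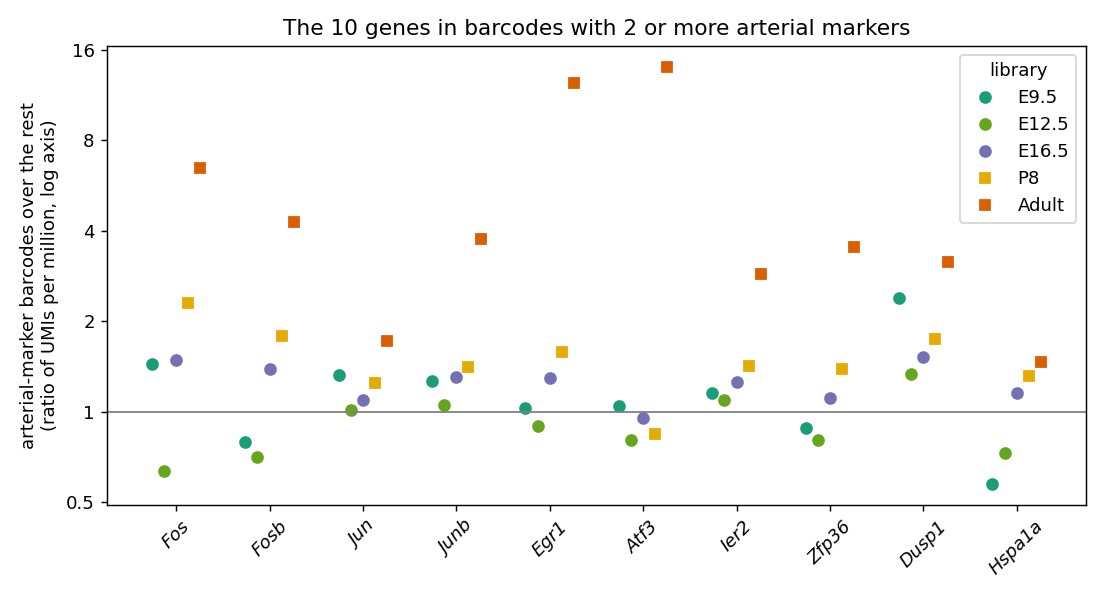
Level in barcodes with 2 or more arterial markers over that in the other endothelial barcodes of the same library, as a ratio on a log axis, per member and library. Adult points are highest for every member, up to 14.1 for Atf3, and the other libraries lie between 0.575 and 2.39.

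A high mitochondrial share, a common sign of damaged cells, did not go with a higher summed level of these RNAs. Endothelial barcodes of each library were cut into 3 equal parts by mitochondrial share, with medians of 4.24% and 7.77% in the lowest and highest part at E9.5. The highest part over the lowest gave a summed ratio of 0.987 at E9.5, 0.906 at E12.5, then 0.919 at E16.5, 0.747 at P8 and 0.558 in the adult. Of 50 pairs of member and library, 10 were higher in the highest part, 3, 2, 4, 1 and 0 by age, and of 40117 pairs of any gene and library 42.3% were (31.9%, 57.4%, 42.8%, 33.3% and 45.3% by age). In the adult all 10 were lower there, from Atf3 at 0.376 to Hspa1a at 0.738, while 45.3% of 8400 genes were higher. The highest part was shallower in each library, in the adult with a median of 4372 UMIs against 5197, and adult levels also went with depth, as given below. Across thinned barcodes Pearson r of member UMIs with mitochondrial share was -0.001, -0.033, -0.081, -0.186 and -0.133 by age.

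Barcodes above the 10% cap had a lower summed level in the 3 libraries with many of them. Libraries differed greatly in how many these were: 42.4% of barcodes at E9.5, 0.746% at E12.5, then 0.200% at E16.5, 26.2% at P8 and 32.1% in the adult. The large shares lay at E9.5, at P8 and in the adult, which have the same kind of barcode, and the small ones at E12.5 and E16.5, which have the other. The median mitochondrial share of kept endothelial barcodes was 5.57%, 3.77%, 3.79%, 5.86% and 5.10% by age. E9.5 and the adult had the largest shares over the cap, with the lowest and the highest summed CPM. How these shares relate to the members' levels was not tested. Barcodes over the cap that met the endothelial marker rule had a summed level, with mitochondrial UMIs taken out of the totals, of 0.926 times the kept ones at E9.5 (2206 barcodes), 0.776 at P8 (716) and 0.746 in the adult (292). Fosb was above 1 in each of these libraries, at 1.26, 1.03 and 1.11. The 60 such barcodes at E12.5 stood at 1.13, with Hspa1a at 9.88 on 25 UMIs. They were shallow, with medians of 2298 to 2580 UMIs in those 3 libraries.

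Depth went with the level mainly in the adult. Cut by total UMIs, the highest part over the lowest gave summed ratios of 0.988, 1.04, 1.21, 0.935 and 2.32 by age, and 36 of 50 pairs were higher in the deepest part, against 49.9% of 40263 pairs of any gene and library. All 10 members were higher there in the adult, where 46.6% of 8503 genes were, Atf3 7.89-fold, Egr1 7.94-fold and Fos 5.12-fold, the same genes that led in arterial-marker barcodes, which were deeper. With each barcode weighted alike, Fos in the adult against P8 went from 0.71 to -0.11 on the log2 scale and Egr1 from 0.06 to -0.83, and at 1000 UMIs 17.7% of adult barcodes had a Fos UMI against 28.5% at P8. Which of depth, mitochondrial share, vessel type and other RNA goes with the change was not tested.

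**Figure D4:**
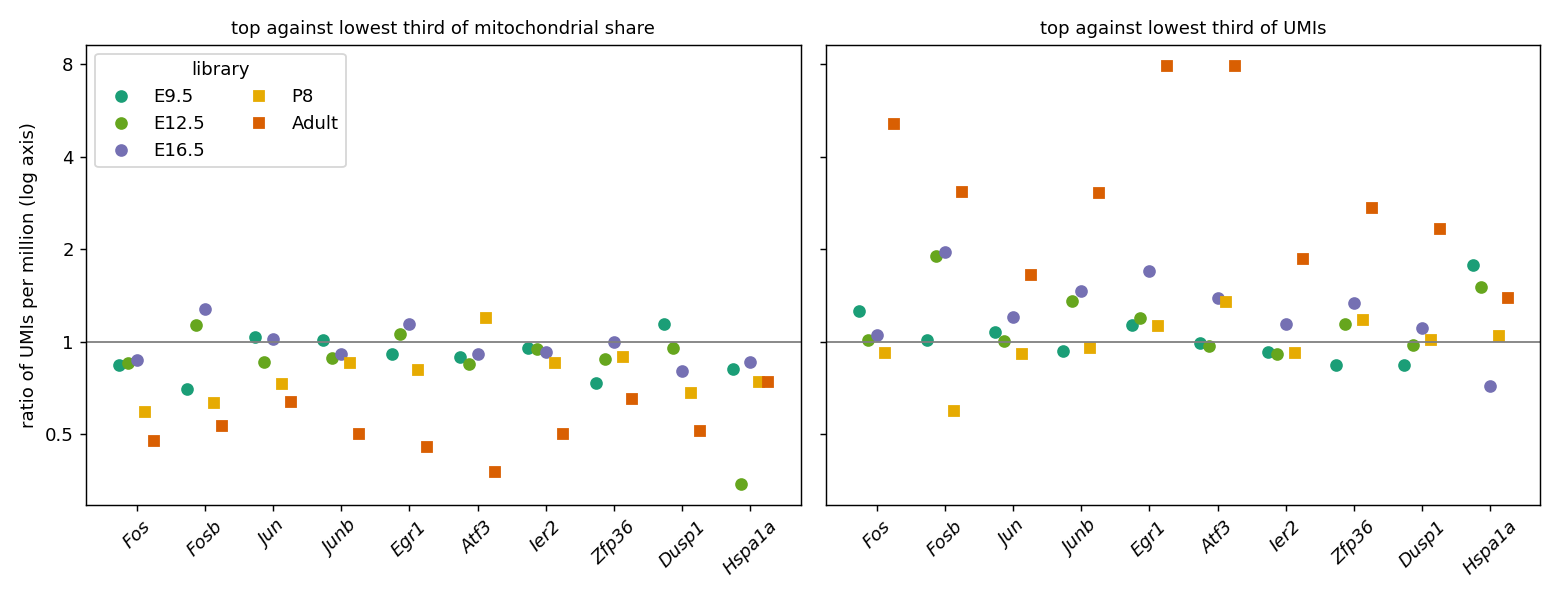
Level in the highest over the lowest of 3 equal parts of each library's endothelial barcodes, as a ratio on a log axis, split by mitochondrial share (left) and by total UMIs (right). On the left most points, and all adult ones, lie below 1, and on the right the adult points lie above 1, up to 7.94 for Egr1.

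Barcodes in the same suspensions with none of the 6 endothelial markers served as a comparison. They numbered 1118, 554, 51, 130 and 176 by age. They were shallower, with median UMIs of 1769, 6496.5, 5186, 1247 and 2463.5, against 7158.5, 10469, 9017, 8468 and 4896 in endothelial barcodes. The part of depth in their lack of markers was not tested. At E9.5 they held 648 CPM of the other endothelial markers, and at P8 and in the adult 4679 and 6241 CPM of mural markers. The summed ratio of endothelial over these was 1.71 at E9.5, 0.307 at E12.5, then 1.40 at E16.5, 0.800 at P8 and 1.13 in the adult, and 20 of 50 pairs were higher in endothelial barcodes, against 56% of 46622 pairs of any gene and library. At E12.5 all 10 were lower in endothelial barcodes, where 77.9% of 8518 genes were higher, with Fos at 118 against 1241 CPM and Hspa1a at 7.22 against 92.3. Those E12.5 barcodes held 5970 CPM of 9 microglia and macrophage markers, against 231 in endothelial ones. Fos, Zfp36 and Fosb were lower in endothelial barcodes at E12.5, at P8 and in the adult, with counting intervals that did not overlap. Those intervals leave out the spread between barcodes, and the barcodes without markers numbered only 130 at P8 and 176 in the adult. The ratios were 0.0947, 0.392 and 0.845 for Fos, 0.144, 0.498 and 0.594 for Zfp36, and 0.111, 0.712 and 0.706 for Fosb. At E16.5 Fos was higher in endothelial barcodes, at 612 against 405 CPM. The intervals of Zfp36 and Fosb at E9.5 and E16.5, and of Fos at E9.5, overlapped, on 8 to 41 UMIs in the barcodes without markers.

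Barcodes with 10% or more of their UMIs in haemoglobin genes, as red cells have, stood in for free RNA. Any member RNA made by those cells themselves would count there too, and its part was not tested. Such barcodes numbered 53 at E9.5 and 133 at E12.5, and only 9, 7 and 3 at E16.5, at P8 and in the adult, too few to give a floor there. At E12.5 (median 7516 UMIs) 0.752% of them had a Fos UMI at 1000 UMIs, against 8.57% of endothelial barcodes and 46.0% of those without markers. Hspa1a had one in 1.5% of these 133 against 0.488% of endothelial barcodes. Its 7.22 CPM at E12.5 is therefore not told from background, and its ratio to E16.5 is uncertain in size. Fosb had none in the 133, which allows a share of up to 2.26%, and its 0.41% of endothelial barcodes is not told from background either. At E9.5 none of the 53 (median 4188 UMIs, against 7158) had a Fos UMI, which allows up to 5.66%. The E9.5 shares of endothelial barcodes lay under that limit for Fos (0.479%), Fosb (0.355%), Zfp36 (0.124%), Hspa1a (0.178%), Egr1 (1.69%), Junb (2.73%) and Atf3 (4.42%), none of which had a UMI in the 53, so these levels are not told from background, nor are ratios to E9.5 certain in size. Dusp1, at 3.62% with 1.89% in the 53, lay under that limit too and is not told from background either. Jun was at 14.6% with 5.66% in the 53. No limit was worked out for that share, so the Jun level is not clearly told from background. Ier2 was at 15.2% with none in the 53, above the limit that 0 of 53 allows.

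The start sites of the members were open in nuclei too, whose protocol text, as far as it runs, names homogenizing in the cold and no dissociating enzyme. ATAC-seq peaks, which mark open chromatin, were read in 13 brain preparations: 8 labelled endothelial (3 at E12, 3 at P6, 2 adult) and 5 input, from mice in which tamoxifen switched on a vessel GFP reporter. Each of the 8 members with a RefSeq start had a peak over it (250 bases before to 50 after) in all 8 endothelial lists, against 48.3% of 17492 genes. Over all 13 lists, 103 of 104 were present, and Zfp36 in P6 input 1 was the exception. Ranked by the authors' fold over background among peaks of the same list, the median percentile in endothelial lists was 87.1 for Hspa1a, 69.6 for Atf3, 61.9 for Fosb, 61.2 for Fos, 46.0 for Jun, 30.7 for Dusp1, 30.1 for Junb and 7.97 for Zfp36. With every list at this ceiling, peak presence says nothing of differences between ages, and lists of different length give no measure of change.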

How the data were processed

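The 10 members, the gene lists and the marker lists were chosen with earlier results of these data known. The single-cell files hold raw UMI counts per gene and barcode, deposited by the authors. Per the file headers the E9.5, P8 and adult tables came from Cell Ranger 4.0.0, and the submitters' processing notes name Cell Ranger, Seurat 4.0.4 and the mm10 build. The E12.5 and E16.5 headers name no version, so whether the counting software also changed between E16.5 and P8 is not known. The E16.5 table came with no gene table of its own, and its rows were read in the order of the others. UMIs were summed over endothelial barcodes and given per 1000000 of their UMIs (CPM), with exact Poisson intervals, and shares with exact binomial intervals. Libraries were compared by a fixed ratio of 2 among genes of at least 10 CPM in either. That rule and the thinning to 1000 UMIs were tested on simulated data. No doublet caller was run, and leaving out the 5% of barcodes with most UMIs was an alternative. Python 3.11.15, numpy 2.4.6, scipy 1.17.1 and pandas 2.3.3 were used.

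All 10 members are named. Of each other list, up to 3 genes per direction were named by the ratio of the lower cortex to the higher embryonic library or the reverse, beside the members counted. Likeness took genes detected in at least 2% of endothelial barcodes of every library. Nr4a1, Asns, Phgdh and Hsf2 were named beyond that rule after their values were seen. ATAC-seq peaks were called by MACS2 per the file headers, separately in each library. The deposited lists give the authors' fold of each peak over background, a ratio, and −log10 of the q-value, and only presence and rank within a list were used. RNA-seq of bulk nuclei was not used here.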

Additional observations from a re-analysis of the deposited data

How the results depend on the processing

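The count of members at least 2-fold higher at E16.5 than at E12.5 was 10 under every alternative run, with Fosb at 0 at E12.5 without barcodes with other markers, and 2 were higher at P8 than at E16.5 under each. Members higher at E12.5 than at E9.5 numbered 4 to 7. Members above all embryonic libraries in both cortex libraries numbered 5 with mitochondrial share capped at 5%, and 3 to 10 when each library was left out in turn. Members higher in the adult than at P8 numbered 1 under the mean of UMIs per 10000, at 1000 UMIs, without the top 5% of barcodes and without barcodes with other markers, and 3 with mitochondrial share capped at 5%, where Atf3 passed at 1.47 on the log2 scale. Pairs higher in the highest part by mitochondrial share numbered 6 under the mean per 10000, at 1000 UMIs and with at least 2 markers. Peaks over members' starts numbered 95 to 96 with each list left out.

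Of 548 log2 ratios of single members under the alternatives, 29 moved by over 1.5-fold and 25 changed sign, the largest of these Fos in the adult against P8. Leaving out barcodes with 2 or more markers of any other cell type kept 203 and 136 barcodes at E9.5 and E12.5, where haemoglobin and other shared transcripts met that rule, and gave no value for Fosb ratios with E12.5. A milder rule, on mural and microglial markers only, was added after the data were seen, as were the comparison of P8 with E9.5 and the single ratios. There Hspa1a at E12.5 against E9.5 was 2.01 on the log2 scale, with 2.64 in all endothelial barcodes and 1.63 at 1000 UMIs. No paired analysis was possible because each age has 1 single-cell library and peak presence came from no test. Low counts of the genes themselves limit some E9.5 values, where Hspa1a rests on 53 UMIs and Zfp36 on 67.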
